A study of Mus musculus with 9 samples.

Results

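Methylation was read at 9 genes that encode neural basic helix-loop-helix (bHLH) transcription factors, *Neurog1*, *Neurog3*, *Olig1*, *Olig2*, *Neurod1*, *Neurod2*, *Atoh7*, *Ptf1a* and *Bhlhe22*. They were chosen by name, with earlier results of these data known. They are 9 of the 14278 protein-coding genes that lie in the part of the genome held by all 3 tables. The tables come from whole genome bisulfite sequencing (WGBS) of mouse J1 embryonic stem cells (ESCs) of strain 129S4/SvJae, from 3 genotypes, wild type (WT), *Dnmt3a*-/- (*Dnmt3a* KO, 3aKO) and *Dnmt3b*-/- (*Dnmt3b* KO, 3bKO). Bisulfite leaves methylated cytosines unconverted, and the level of a CpG is its share of unconverted reads. There were 9 libraries, 3 per genotype, which the authors combined into 1 table for each genotype. Each level is therefore 1 pooled value per genotype with no replicate error, and no test across replicates could be made. Whether the libraries came from separate cultures, and whether each KO line is 1 clone, is not given in the sources used here. All 3 genotypes share the J1 background, and neither KO is labelled with a change of the other enzyme's gene.

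The bHLH factors bind short DNA motifs called E-boxes as dimers, mostly with a widely expressed E protein such as TCF3 or TCF4. Neurogenins and ATOH7 are proneural factors, which start neuronal differentiation, and NEUROD factors act after them in maturing neurons. OLIG1, OLIG2 and BHLHE22 form a related branch of factors that often act as repressors, and PTF1A specifies pancreatic cells and inhibitory neurons. Genes of this kind are developmental regulators with CpG-rich promoters, which are generally kept silent in ESCs without promoter methylation. DNMT3A and DNMT3B are the enzymes that place new methyl groups on CpGs.

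Over the shared part, 13328402 CpGs were covered by at least 3 reads in all 3 tables, and their mean methylation was 82.4% in WT, 50.3% in 3aKO and 75.5% in 3bKO ESCs. Median depth was 22, 20 and 21 reads per CpG. At the targeted genes, a run of 12 consecutive CpGs of *Dnmt3a* had 0 reads in 3aKO and a mean of 31.4 reads in WT, and a run of 30 CpGs of *Dnmt3b* had 0 reads in 3bKO and 31.5 in WT. Of the ESC regulators, *Pou5f1*, *Sox2* and *Klf4* had WT levels of 0.685%, 0.0594% and 0.153% within 1 kb of the transcription start site (TSS). *Esrrb* had 94.1% at the start of its longest isoform, and *Tbx3* was not analysed here.

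To show the DNA that these levels refer to, the sequence before the start is given for the member with the lowest and the member with the highest WT mean within 1 kb of the TSS at 3 reads per CpG. CpGs are in capitals, and sequences read 5′ to 3′ along the gene, from build mm9. The *Ptf1a* sequence is chr2:19367040-19367289 on the plus strand. The *Neurod1* sequence is chr2:79296943-79297158 on the minus strand, and the 34 bases between it and the TSS are left out because they lie in an exon of a transcript of the neighbouring gene *Cerkl*.
Ptf1a: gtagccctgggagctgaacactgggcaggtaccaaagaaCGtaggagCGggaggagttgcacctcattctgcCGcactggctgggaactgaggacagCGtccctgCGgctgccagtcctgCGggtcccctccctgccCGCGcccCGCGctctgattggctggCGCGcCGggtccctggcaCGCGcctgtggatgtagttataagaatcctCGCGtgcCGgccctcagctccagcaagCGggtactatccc
Neurod1: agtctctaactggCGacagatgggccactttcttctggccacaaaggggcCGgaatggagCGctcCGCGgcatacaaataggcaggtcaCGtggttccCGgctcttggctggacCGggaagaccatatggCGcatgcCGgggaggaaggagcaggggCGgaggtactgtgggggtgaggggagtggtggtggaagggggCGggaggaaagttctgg
All 19 CpGs of the *Ptf1a* sequence were measured, with means of 2.63% in WT, 0.195% in 3aKO and 1.01% in 3bKO ESCs. The 12 CpGs of the *Neurod1* sequence had means of 6.23%, 0% and 0%, so that the higher level of *Neurod1* within 1 kb of the TSS lay outside these bases. The E-box CANNTG, whose letters read the same on both strands, occurred 3 times in the *Neurod1* sequence and 0 times in the *Ptf1a* sequence. Of the 250 bases before the TSS of all genes, 61.9% held at least 1 CANNTG.

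The starts of 8 of the 9 genes held more CpGs than the median gene, with *Neurod1* just below it. Within 1 kb on both sides of the TSS the reference holds between 62 CpGs (*Neurod1*) and 143 CpGs (*Ptf1a*), with a median of 105, beside a median of 65 over all genes. The median GC content was 58.9% for the members and 51.4% for all genes, and the median ratio of observed to expected CpGs was 0.682 and 0.493. These are descriptions of 9 genes, and CpG number also sets how many reads stand behind each mean.

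Around their starts 7 of the 9 genes had WT means under 20%, while *Neurod1* (26.0%) and *Atoh7* (21.1%) lay above the median of all genes. The means of all 9 were lower in both KOs, with differences in 3aKO between -21.7 (*Neurod1*) and -1.19 percentage points (*Olig2*). For *Neurod2* the direction in 3aKO turned under other settings given below. The interval of the read share difference spanned 0 for *Neurog1* in 3aKO and for *Neurod2* in 3bKO. The median level within 1 kb of the TSS was 8.10% in WT, 4.22% in 3aKO and 5.91% in 3bKO ESCs, beside medians of 17.8%, 4.97% and 12.4% over all genes. The members' median difference from WT was -4.88 percentage points in 3aKO and -2.20 in 3bKO, beside -12.3 and -3.73 over all genes. In 3aKO, 1 of the 9 members was more than 20 percentage points below WT, whereas 40.9% of all genes were. With at least 10 reads per CpG the difference of *Bhlhe22* was -20.8 (43 CpGs) in place of -8.94, and that of *Neurod1* was -20.8 (30 CpGs). In 3bKO, 0 of 9 were, and 2.51% of all genes. At 3 reads per CpG 7 of the 9 had a WT mean under 20%, from which no drop of 20 points is possible, so that the members' share in 3aKO is not comparable with that of all genes. Mean depth here was between 9.01 and 22.3 reads per CpG in WT, between 9.10 and 17.2 in 3aKO and between 11.9 and 20.8 in 3bKO.

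**Figure D1:**
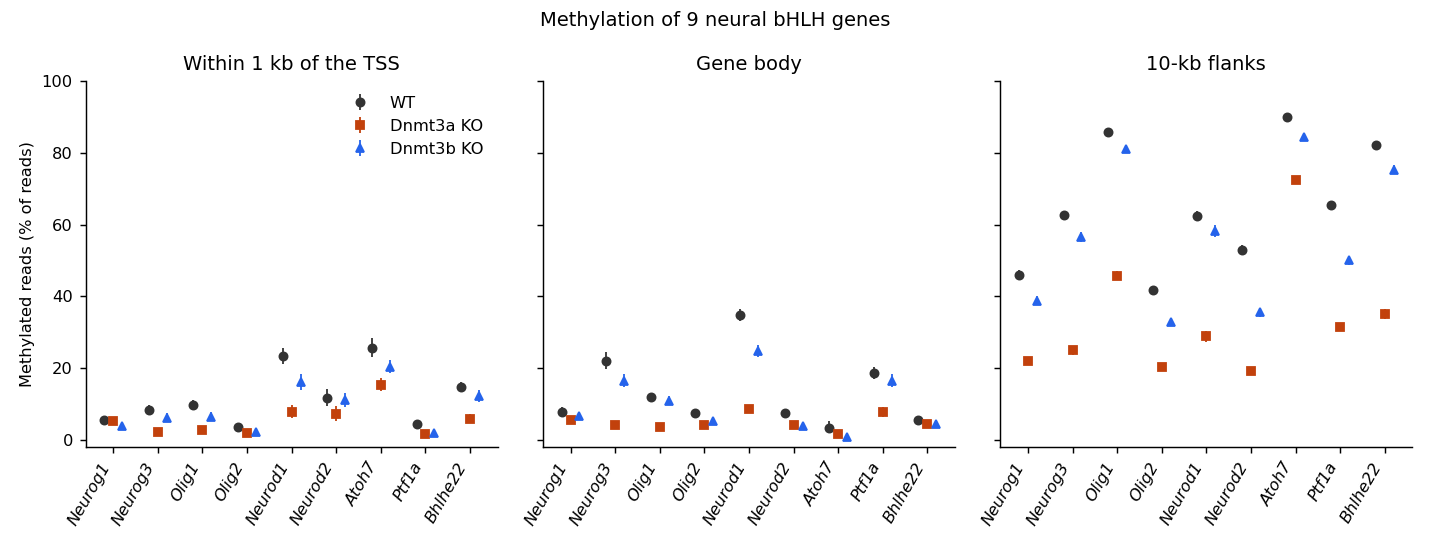
Share of methylated reads (%, y axis) of each gene (x axis) within 1 kb of the TSS, in the gene body and in the 10-kb flanks. Points are the pooled value of a genotype and bars are 95% Wilson intervals. These cover counting error only and treat reads at neighbouring CpGs as independent. Most TSS regions and most bodies lie low in every genotype, whereas flanks lie highest in WT, lower in 3bKO by 4.24 (*Neurod1*) to 17.4 points (*Neurod2*) and lowest in 3aKO.

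Among the proneural genes, *Neurog1*, a determinant of sensory neurons (ENSMUSG00000048904.4, chromosome 13 from 56351866 to 56353524, minus strand, 1 exon), had 6.32% in WT, 4.44% in 3aKO and 4.32% in 3bKO ESCs within 1 kb of its TSS. The difference in the share of methylated reads between 3aKO and WT was -0.453 points with a 95% interval of -1.73 to 0.871, so that no difference was detectable at this depth. *Neurog3*, which drives the endocrine lineage of the pancreas (ENSMUSG00000044312.3, chromosome 10 from 61595838 to 61597511, plus strand, 2 exons), had 8.10%, 2.14% and 5.91%. For this gene the read share of 3aKO was lower than that of WT by 5.96 points (interval -7.63 to -4.37), and that of 3bKO by 2.15 points (-4.03 to -0.304). *Atoh7*, required for retinal ganglion cells (ENSMUSG00000036816.3, chromosome 10 from 62562904 to 62563353, plus strand, 1 exon), had a mean of 21.1% in WT, 10.5% in 3aKO and 16.4% in 3bKO. With 500 bp on both sides of the TSS its difference in 3aKO was -3.54 points in place of -10.6. Its annotated model is a single exon of 450 bp, so that the annotated start may lie inside a longer transcript.

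*Neurod1*, a factor of maturing neurons and of pancreatic beta cells (ENSMUSG00000034701.8, chromosome 2 from 79292678 to 79296908, minus strand, 2 exons), had a mean of 26.0% in WT, 4.22% in 3aKO and 12.9% in 3bKO. It was the member past 20 points in 3aKO, with a difference of -21.7. This call rests on the weighting, because the share of methylated reads differed by -15.7 points (interval -18.5 to -12.7), and with 500 bp on both sides of the TSS the difference in means was -13.0. *Neurod2*, a factor of cortical and other maturing neurons (ENSMUSG00000038255.6, chromosome 11 from 98186729 to 98190962, minus strand, 2 exons), had 14%, 9.09% and 9.28%. The direction of its difference in 3aKO depended on the setting, since -4.88 points became 0.896 with 500 bp on both sides of the TSS and 12.5 with at least 10 reads per CpG, which leaves 4 CpGs, whereas the read share differed by -4.51 (interval -7.75 to -1.31). On those 4 CpGs, WT and 3bKO both had 0%. In 3bKO the interval of its read share difference spanned 0 (-3.87 to 2.55), and its depth in WT was the lowest of the 9.

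In the OLIG branch, *Olig1*, a regulator of oligodendrocyte maturation (ENSMUSG00000046160.5, chromosome 16 from 91270014 to 91272184, plus strand, 1 exon), had 6.84% in WT, 2.81% in 3aKO and 4.64% in 3bKO. *Olig2*, which specifies motor neurons and oligodendrocytes (ENSMUSG00000039830.8, chromosome 16 from 91225795 to 91228922, plus strand, 2 exons), had 3.33%, 2.14% and 2.78%. The 2 genes lie beside each other on the same strand. *Bhlhe22*, a repressor in neurons of the cortex and the dorsal spinal cord (ENSMUSG00000025128.6, chromosome 3 from 17954325 to 17957509, plus strand, 1 exon), had 14.3%, 5.4% and 10.8%. Nearly all of this lay before its TSS. The kb before the TSS had 70.7% in WT, 26.2% in 3aKO and 54.8% in 3bKO, whereas the kb after it had 1.26%, 0.574% and 0.530%. *Ptf1a* (ENSMUSG00000026735.2, chromosome 2 from 19367290 to 19369128, plus strand, 2 exons) had 3.12%, 1.05% and 1.46%.

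In order of WT mean the genes were *Neurod1*, *Atoh7*, *Bhlhe22*, *Neurod2*, *Neurog3*, *Olig1*, *Neurog1*, *Olig2* and *Ptf1a*. The 95% Wilson intervals of the read share overlapped between *Neurod1* (21.1% to 25.6%) and *Atoh7* (23.1% to 28.4%), along the chain of *Bhlhe22* (13.4% to 16.2%), *Neurod2* (9.30% to 14.3%), *Neurog3* (6.95% to 9.80%) and *Olig1* (8.61% to 11%), and between *Olig2* (2.75% to 4.45%) and *Ptf1a* (3.60% to 5.28%). They did not overlap between these 3 sets. The interval of *Neurog1* (4.77% to 6.48%) overlapped with that of *Ptf1a* and with no other. By read share *Atoh7* lay above *Neurod1*, *Olig1* above *Neurog3* and *Ptf1a* above *Olig2*, so that the order of the means within the sets depends on the weighting. The order between the sets depends on depth. With at least 10 reads per CpG, WT means were 33.9% in *Atoh7*, 28.6% in *Bhlhe22*, 26.2% in *Neurod1* and 0% in *Neurod2* (4 CpGs).

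The gene bodies were mostly as lowly methylated as the starts. The median body level was 8.86% in WT, 4.21% in 3aKO and 6.79% in 3bKO, beside 80.1%, 45.8% and 72.5% over all genes. The 9 bodies are short, from 450 bp (*Atoh7*) to 4234 bp (*Neurod2*), and overlap the region within 1 kb of the TSS. The comparison with all genes is not matched for length, so that it does not set neural bHLH bodies apart from other short genes. *Neurod1* was the exception, and the other 8 lay between 2.78% (*Atoh7*) and 17.6% (*Neurog3*) in WT. *Neurod1* had 36.2% in WT, 7.18% in 3aKO and 24.8% in 3bKO. In 3aKO, 1 of 9 bodies was lower than WT by more than 20 points, against 89.3% of all genes, and in 3bKO 0 of 9, against 1.19%. The other 8 bodies had WT means under 20%, from which no drop of 20 points is possible, so that these shares are not comparable. Without the 1 kb after the TSS the picture differed, and the median difference in 3aKO was -22.4 points in place of -4.71 (8 genes, since *Atoh7* is too short). The remainder of *Neurog3* then differed by -46.0 points, of *Ptf1a* by -33.9, of *Neurog1* by -33.2 and of *Neurod1* by -30.5, whereas that of *Olig2* differed by -2.15 and that of *Bhlhe22* by -3.90.

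The differences from WT were larger in the 10-kb flanks than around the starts. The median flank level of the 9 genes was 59.3% in WT, 25.4% in 3aKO and 50.1% in 3bKO ESCs, beside 76.7%, 42.6% and 68.9% over all genes. The median difference from WT was -29.96 points in 3aKO and -6.76 in 3bKO, beside -31.7 and -7.02 over all genes. In 3aKO, 9 of 9 members lay more than 20 points below WT, and 95.2% of all genes were. In 3bKO, 0 of 9 were, and 0.063% of all genes. 3aKO was lower than 3bKO by more than 20 points at 5 of 9 members and at 75.7% of all genes. These shares lie near or below those of all genes, so that the flanks of the neural bHLH genes did not stand apart by these counts.

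**Figure D2:**
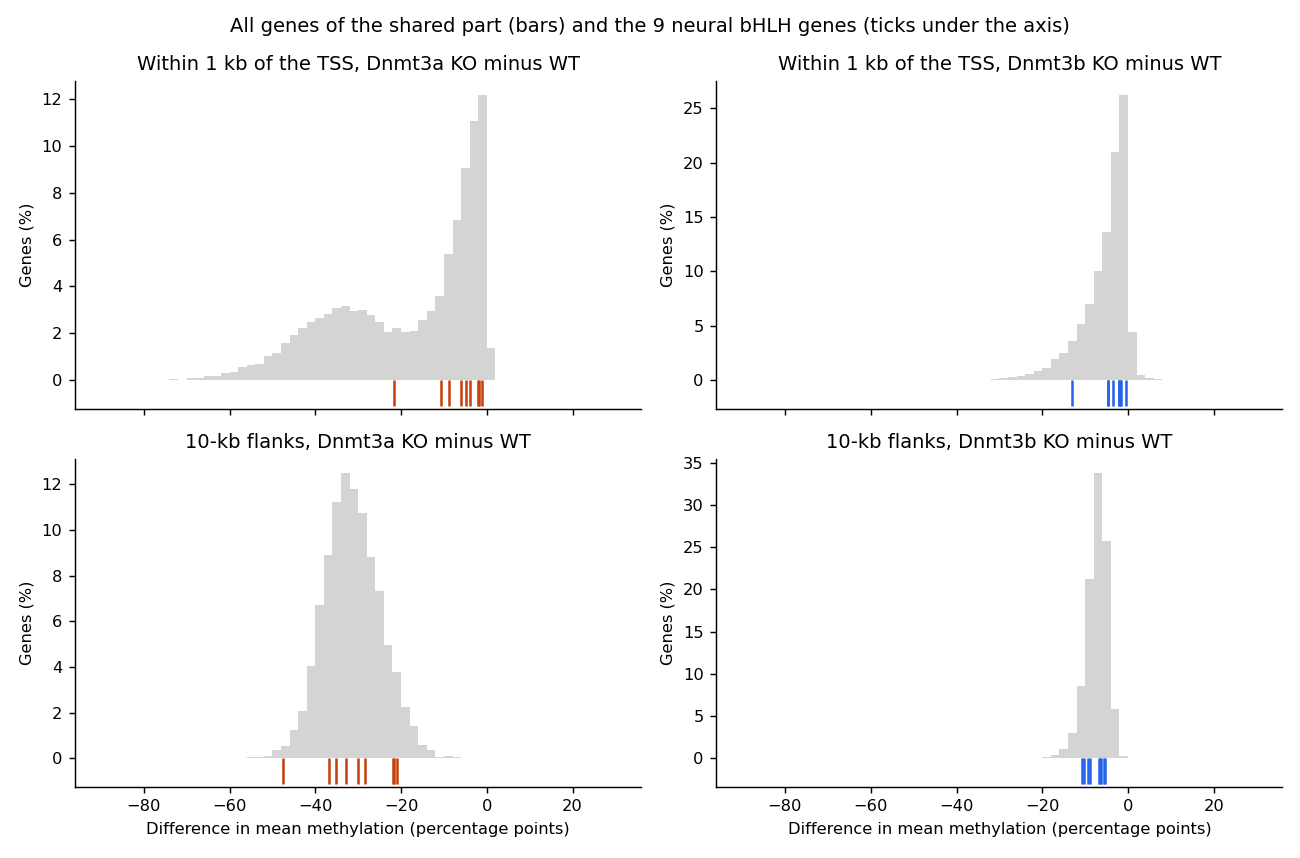
Difference from WT in mean methylation (percentage points, x axis) within 1 kb of the TSS (upper plots) and in the 10-kb flanks (lower plots), for 3aKO (left) and 3bKO (right). Bars give the share of all genes of the shared part (%, y axis) and ticks under the axis the 9 neural bHLH genes, which lie within the spread of all genes, with *Bhlhe22* at -47.4 in the lower tail for 3aKO flanks.

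*Bhlhe22* had the largest flank difference, with 83.8% in WT, 36.4% in 3aKO and 73.5% in 3bKO. *Olig1* had 83.0%, 46.3% and 76.7%, and *Neurod1* had 60.5%, 25.4% and 51.7%. *Neurog3* had 53.9%, 21.1% and 47.3%, with the start of another gene, 2010107G23Rik, in its flank. These 4 genes and *Ptf1a*, with 59.3%, 29.4% and 50.1%, were the 5 with more than 20 points between the KOs. For *Ptf1a* this rests on the weighting, with -20.7 by means and -18.6 by read share (interval -20.3 to -16.9). *Neurod2* had 45.9%, 17.5% and 35.2%. In 3bKO the read share differed from WT by more than the mean did in *Neurod2*, with -17.4 points (interval -19.1 to -15.8) against -10.7, in *Ptf1a*, with -15.3 (-17.0 to -13.6) against -9.29, and in *Olig2*, with -9.01 against -5.51. It differed by less in *Neurod1*, with -4.24 against -8.86, and in *Bhlhe22*, with -6.91 against -10.3. *Neurog1* had 40.9%, 19.1% and 34.2%, and *Olig2* had 39.9%, 18.9% and 34.4%. *Atoh7* had the highest level in every genotype, with 86.4%, 64.8% and 81.0%. Its difference of -21.7 in 3aKO was -17.7 as a read share (interval -18.6 to -16.8), and that of *Olig2* was -20.97 with 10-kb flanks and -17.3 with flanks of 5 kb, so that both lie close to the limit of 20 points.

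The upstream and downstream sides differed in some of the genes. In *Olig2* the upstream flank had 23.6% in WT and the downstream flank 71.3%, and in *Neurog1* 25.4% and 87.5%, whereas *Ptf1a* had 60.3% and 58.7%. The upstream difference in 3aKO was -13.6 points in *Olig2* and -14.1 in *Neurog1*, and the other 7 members were past 20 points upstream, with -20.2 (*Neurod2*) to -50.1 (*Bhlhe22*), as were 89.2% of all genes. Downstream, 8 of 9 members were past 20 points in 3aKO, as were 92.9% of all genes. The exception was *Atoh7*, with 91.8% in WT and 76.2% in 3aKO. Its downstream flank also had the most reads, 52.0 per CpG in WT against at most 28.8 in the other members, in 118 CpGs with more than 2 times the median depth. These CpGs differed by -13.6 points and the other 79 by -18.7, a split chosen after the depth had been seen, so that the difference was under 20 points at CpGs of usual depth too. In 3bKO, 1 of 9 downstream flanks was lower by more than 20 points, against 0.47% of all genes. This was *Neurod2*, with 67.3% in WT, 46.2% in 3bKO and 25.6% in 3aKO. The read share of this flank was lower by 18.2 points in 3bKO (interval -20.7 to -15.6), which is below the limit.

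The flank windows with the largest differences show what such DNA looks like. For the 3 members with the largest flank difference in 3aKO, the 200 bases outside exons with at least 5 CpGs and the largest difference are given from mm9, with CpGs in capitals. They were chosen for that difference, so their values are a description. Windows in any annotated exon were passed over, such as the DNA 4 to 3 kb before the *Neurod1* TSS (82.2% in WT and 25.7% in 3aKO), which lies in an exon of the lincRNA *Gm17325*. The *Bhlhe22* window is chr3:17952593-17952792 (plus strand, 1.73 to 1.53 kb upstream of the TSS), the *Olig1* window chr16:91263124-91263323 (plus strand, 6.89 to 6.69 kb upstream) and the *Neurod1* window chr2:79291650-79291849 (minus strand, 5.06 to 5.26 kb after the TSS).
Bhlhe22: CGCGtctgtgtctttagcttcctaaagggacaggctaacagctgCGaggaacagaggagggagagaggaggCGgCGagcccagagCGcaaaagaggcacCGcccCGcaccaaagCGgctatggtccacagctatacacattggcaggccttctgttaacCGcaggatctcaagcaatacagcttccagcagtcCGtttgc
Olig1: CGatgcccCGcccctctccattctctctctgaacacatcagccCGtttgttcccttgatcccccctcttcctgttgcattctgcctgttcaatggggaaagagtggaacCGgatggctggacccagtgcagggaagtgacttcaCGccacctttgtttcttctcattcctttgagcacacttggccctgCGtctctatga
Neurod1: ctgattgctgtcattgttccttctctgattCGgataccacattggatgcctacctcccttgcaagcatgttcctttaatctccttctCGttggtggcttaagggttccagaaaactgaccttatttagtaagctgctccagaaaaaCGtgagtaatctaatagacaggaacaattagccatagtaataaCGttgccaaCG
The 11 CpGs of the *Bhlhe22* window had 84.9% in WT, 8.88% in 3aKO and 64.0% in 3bKO. The 6 CpGs of the *Olig1* window had 92.8%, 11.6% and 59.2%, and the 5 CpGs of the *Neurod1* window had 83.6%, 34.0% and 85.0%. In the *Neurod1* window the values of WT and 3bKO lay close together, from 154 reads and 174 reads.

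The profiles in bins of 1 kb show that several of these flanks are not uniform. In WT, levels reached 80% or more within 4 kb of the start on both sides in *Neurog1*, *Olig1*, *Neurod1*, *Atoh7* and *Bhlhe22*, and on the upstream side in *Neurod2* and *Ptf1a*. *Olig2* instead was low upstream, with 10.5%, 8.37%, 11.4% and 5.12% in the 4 bins from 6 to 2 kb before the TSS, then 42.7% in the next bin. *Neurog3* stayed at intermediate levels, with 49.5%, 44.1%, 33.9% and 41.3% in the bins from 1 to 5 kb after the TSS. In 3aKO these 4 bins of *Neurog3* had 6.74%, 0.735%, 14.8% and 0%, and in 3bKO they had 34.7%, 20.6%, 22.2% and 22.5%. They hold only 22, 8, 9 and 3 CpGs.

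**Figure D3:**
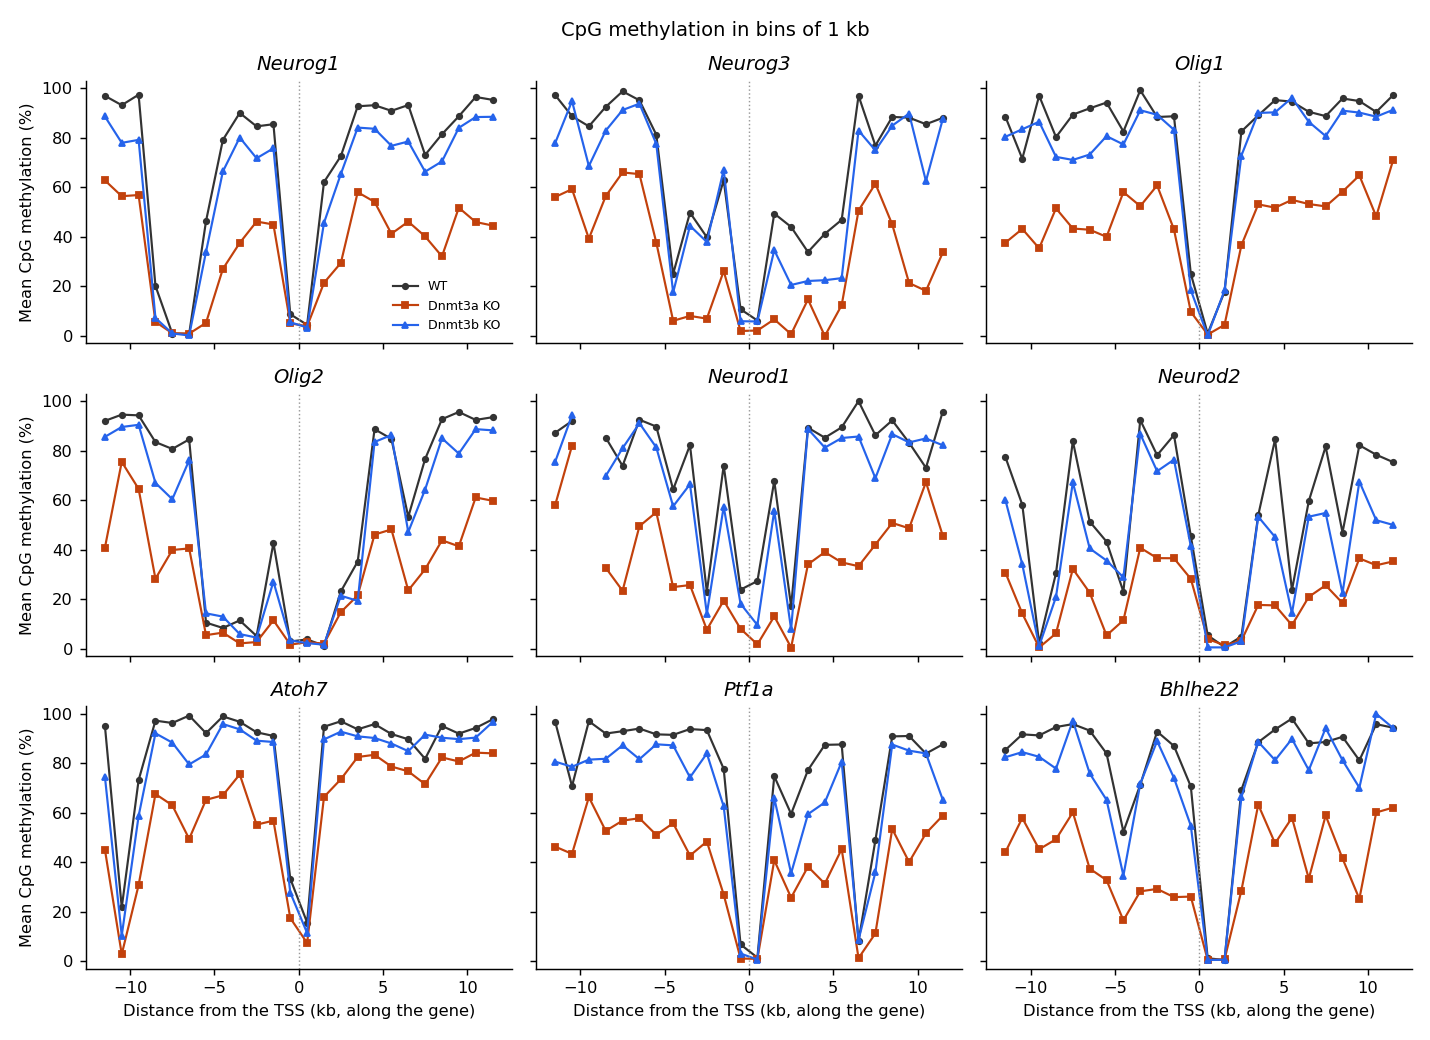
Mean CpG methylation (%, y axis) in bins of 1 kb by distance from the TSS (kb along the gene, x axis), for each gene and genotype. WT and 3bKO follow the same valleys, and 3aKO lies below them between the valleys, with *Atoh7* downstream of its start keeping the most methylation.

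Lowly methylated stretches were then measured around each TSS, as runs of CpGs with a running mean over 5 CpGs under 10%. The median length was 0.846 kb in WT, 1.90 kb in 3aKO and 0.871 kb in 3bKO, beside 0.503, 1.04 and 0.696 kb over all genes. Genes without a stretch count as 0 kb in these medians. All 9 members had a stretch in every genotype. Of all 14278 genes, 8945 had one in WT, 9786 in 3aKO and 9202 in 3bKO. In 3aKO 6 of 9 members had a stretch over 1.5 times as long as in WT, as did 60.1% of all genes with a WT stretch. In 3bKO 5 of 9 did, against 22.8%. These lengths are fragile, because a few CpGs can break a run. *Bhlhe22*, for example, had 1.79 kb in WT, 2.16 kb in 3aKO and 0.08 kb in 3bKO, and *Neurod2* had 0.11, 0.19 and 3.01 kb.

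Runs with up to 500 bp between them were therefore joined while their mean stayed under 10%, a definition chosen after the broken runs had been seen. The median joined length was 1.53 kb in WT, 2.16 kb in 3aKO and 1.83 kb in 3bKO, beside 0.640, 1.18 and 0.797 kb over all genes. The members' median was thus longer than that of all genes in every genotype, although the WT stretches of *Neurod1* and *Atoh7* were shorter than the median of all genes. In WT the 7 other neural bHLH genes read below had a median of only 0.072 kb, shorter than that of all genes. WT medians of the 6 Hes and Hey genes (1.774 kb) and the 6 Id and E protein genes (1.665 kb) exceeded that of the members. The median of all genes again counts genes without a stretch as 0 kb, whereas all 9 members had one. In 3aKO, 4 of 9 stretches were over 1.5 times as long as in WT, against 56.5% of all genes with a WT stretch, and in 3bKO 1 of 9, against 14% of them. The excess of 3bKO seen with single runs was therefore not present with joined runs.

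*Neurog3* had the largest extension in proportion (5.28 times), from 1.22 kb in WT to 6.43 kb in 3aKO, with 1.38 kb in 3bKO. The longer stretch reached from 1.23 kb before to 5.19 kb after the TSS and held 136 CpGs, with 3.62% in 3aKO, 20.5% in WT and 13.3% in 3bKO. *Olig2* went from 3.08 kb in WT to 8.42 kb in 3aKO, with 3.34 kb in 3bKO. With single runs *Olig2* had 1.15 kb in WT, 2.41 kb in 3aKO and 2.65 kb in 3bKO. Its longer stretch in 3aKO than in 3bKO therefore rests on joining. Over those 8.42 kb and 383 CpGs the mean was 3.48% in 3aKO, 8.29% in WT and 6.95% in 3bKO, and WT had 3 separate runs here. The part between 2 and 1 kb before the *Olig2* TSS (33 CpGs) was not low in WT, with 42.7%, or in 3bKO, with 27.1%, against 11.5% in 3aKO. *Neurod1* had 0.39 kb in WT, 1.41 kb in 3aKO and 0.49 kb in 3bKO, and *Atoh7* had 0.58, 1.02 and 0.90 kb. *Atoh7* was also the member past 1.5 times in 3bKO, at 1.55 times.

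The other 5 stretches differed by less than 1.5 times in both KOs. *Neurog1* had 1.23 kb in WT, 1.5 kb in 3aKO and 1.36 kb in 3bKO. *Olig1* had 2.06, 2.33 and 1.94 kb, *Neurod2* had 2.80, 3.16 and 3.01 kb, *Ptf1a* had 1.53, 1.90 and 1.83 kb, and *Bhlhe22* had 1.79, 2.16 and 1.94 kb. Stretches of at least 3.5 kb, the size of the large lowly methylated regions called canyons, were found at 0 of 9 members in WT (0.91% of all genes), at 2 of 9 in 3aKO (*Neurog3* and *Olig2*, against 6.58%) and at 0 of 9 in 3bKO (1.92%). The 3aKO count rests on joining, since with single runs *Neurog3* had 2.81 kb and *Olig2* 2.41 kb in 3aKO. With single runs 0 of 9 members reached 3.5 kb in 3aKO, beside 4.27% of all genes.

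Several loci held further lowly methylated runs away from the start. Counting joined runs of at least 10 CpGs, a minimum set after the profiles had been seen, the 9 loci held 18 runs in WT, 19 in 3aKO and 20 in 3bKO, which covered 11.2%, 19.8% and 12.5% of their 202.6 kb. In *Neurog1* a run lay from 8.11 to 6.04 kb upstream in WT (112 CpGs), with 0.820% in WT, 1.06% in 3aKO and 0.610% in 3bKO. It was longer than the run at the *Neurog1* start, at 2.06 kb against 1.23 kb. In *Neurod2* a run of 95 CpGs lay from 9.94 to 8.81 kb upstream, with 3.70%, 0.390% and 1.02%. In *Ptf1a* a run of 41 CpGs lay from 6.37 to 7.07 kb after the TSS, with 2.62%, 0.810% and 3.12%. All 3 of these runs had means under 4% in every genotype.

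Other runs away from the start were longer in 3aKO. Upstream of *Neurog3* a WT run of 0.25 kb corresponded to one of 2.18 kb in 3aKO and of 0.51 kb in 3bKO. Over the 79 CpGs of the longest of these, the mean was 31.6% in WT, 5.09% in 3aKO and 26.8% in 3bKO. The 3aKO values set these bounds, as they do for *Atoh7* below, so that a low 3aKO mean is given by the choice. In *Neurod1* the run that lies 2 to 3 kb after the TSS was 0.43 kb long in WT, 1.31 kb in 3aKO and 0.58 kb in 3bKO. In *Atoh7* a run about 10 kb upstream was 0.97 kb long in 3aKO and 0.63 kb in 3bKO. Over the 30 CpGs of the longer one the mean was 22.5% in WT, 2.43% in 3aKO and 9.39% in 3bKO. No WT run of at least 10 CpGs reached into the flank here. Both KO runs lie mostly beyond the outer end of the flank, where WT was not searched, so that absence in WT is not shown. As a share of the locus, runs went from 6.77% in WT to 39.7% in 3aKO in *Neurog3* and from 25.1% to 37.4% in *Olig2*, and from 7.72% to 9.32% in *Bhlhe22*.

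**Figure D4:**
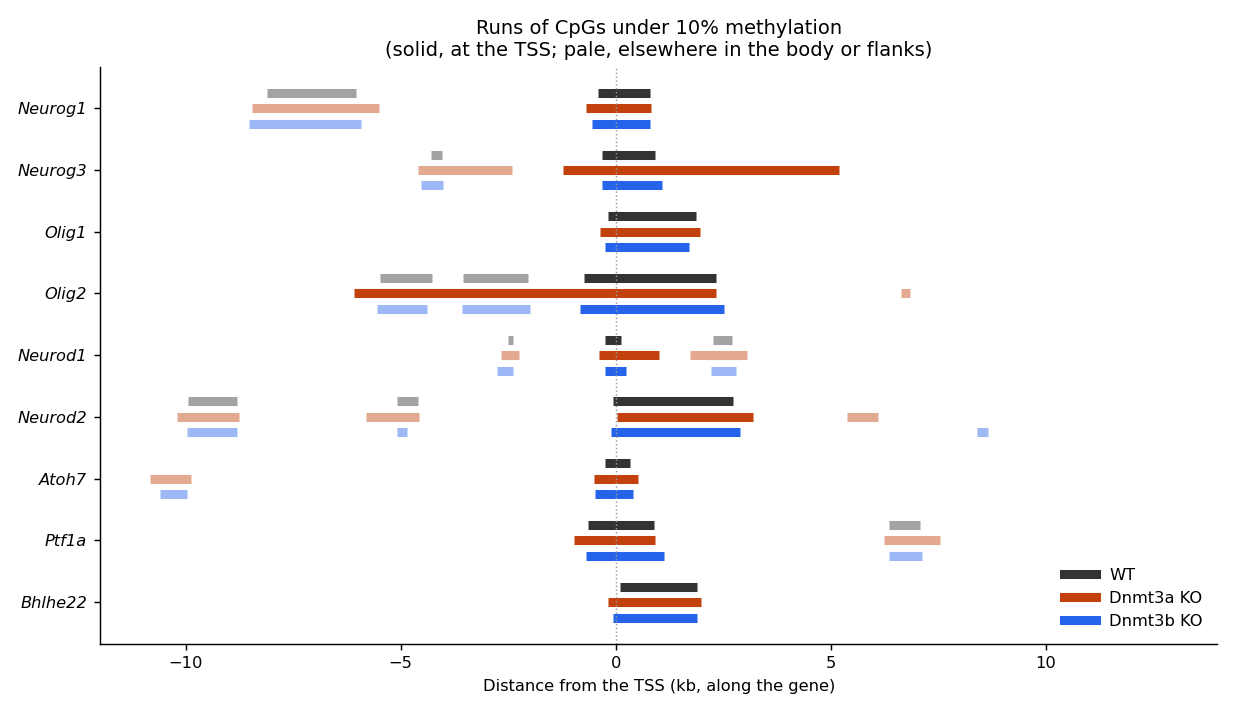
Joined runs of at least 10 CpGs under 10% methylation by distance from the TSS (kb along the gene, x axis), for each gene and genotype. Solid bars are the run at the TSS and pale bars are runs elsewhere. The run at the TSS is present in all 3 genotypes for every gene, with the longest bars in 3aKO for *Neurog3* (6.43 kb) and *Olig2* (8.42 kb). Some pale bars, such as that of *Neurod2* from 5.39 to 6.10 kb after the TSS in 3aKO, have no counterpart in WT. Runs wholly beyond the 10-kb flanks were not searched.

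The DNA next to the stretches was intermediate in WT and lower in both KOs. In the 2 kb on both sides of the joined WT stretch, levels in WT were between 30.5% (*Olig2*) and 73.3% (*Atoh7*). The difference in 3aKO was between -15.8 (*Olig2*) and -46.0 points (*Bhlhe22*), and in 3bKO between -6.68 (*Olig1*) and -17.1 (*Neurod1*). In *Neurod1* these edges had 51.7% in WT, 10.9% in 3aKO and 34.6% in 3bKO. In *Neurog3* they had 43.9%, 9.61% and 33.8%. The WT stretch fixes where these edges begin, so that they adjoin CpGs chosen to be low in WT. They begin where the low run of WT ends, a choice that can enlarge the differences from WT. With edges set by the joined 3bKO stretch, the difference in 3aKO was between -16.4 (*Olig2*) and -52.0 points (*Bhlhe22*).

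Single CpGs were compared where both genotypes had at least 3 reads, and called when the 95% interval of the difference lay beyond 0.2. In the bodies and flanks, 742 of 3883 CpGs (19.1%) were lower in 3aKO than in WT, and 27.2% of all CpGs were. The shares are not directly comparable, since CpGs under 10% in WT, which cannot be called lower, made up 40.2% of these loci and 7.86% of the shared part. In 3bKO 95 of 3904 (2.43%) were lower, beside 2.40% of all CpGs, and 3aKO was lower than 3bKO at 473 of 3904 CpGs (12.1%), beside 18.0%. By gene the share in 3aKO went from 10% in *Atoh7*, 11.8% in *Olig2*, 15.4% in *Neurog1* and 15.8% in *Neurod2* to 25.5% in *Bhlhe22*, 25.7% in *Neurog3* and 32.8% in *Neurod1*. The place of *Atoh7* depends on the limit, since 43.9% of its CpGs were lower with an interval beyond 0, where all 9 loci had 38.5% and all CpGs 59.4%. In 3bKO it was highest in *Neurod1*, with 6.13%, and lowest in *Atoh7*, with 0.510%. CpGs called higher than in WT numbered 1 in 3aKO, in *Neurog1* (0.011% of all CpGs), and 6 in 3bKO (0.0915%).

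Of the 3858 CpGs of these loci with 3 reads in every genotype, 34.6% were at 80% or more in WT, beside 77.1% of the shared part. Of the 1336 CpGs at 80% or more in WT, 17.1% were still at 80% or more in 3aKO and 67.8% in 3bKO, beside 20.5% and 74.8% in the shared part. Their mean in 3aKO was 50.4%, beside 58.3%. The share still at 80% or more in 3aKO was 48.0% in *Atoh7* and between 2.24% (*Neurod2*) and 14.7% (*Olig1*) in the other 8 genes, so that the 17.1% rests largely on *Atoh7*. The mean was 73.0% in *Atoh7*, which holds 275 of these CpGs, and between 34.3% (*Neurod2*) and 52.6% (*Olig1*) in the other 8 genes. Of the 1549 CpGs under 10% in WT, 2.58% were at 20% or more in 3aKO and 4.07% in 3bKO, beside 1.05% and 2.03%. These CpGs were chosen by their WT values at 3 reads or more, and how much counting error adds was not tested. By the interval, 1 CpG of the 9 loci was called higher in 3aKO and 6 in 3bKO.

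Other genes of the pathway were read from lists of names. Within 1 kb of the TSS, the 7 other neural bHLH genes had a median of 22.4% in WT, and 4 of 7 were lower by more than 20 points in 3aKO and 0 of 7 in 3bKO. They ranged widely. *Neurog2*, a proneural gene of the cortex, had 1.24% in WT, 0.188% in 3aKO and 0.697% in 3bKO, and the longest WT stretch of this list as a single run (2.63 kb), whereas *Nhlh1* had 93.1%, 46.3% and 82.8%. *Nhlh1* also had the largest flank difference of the list in 3aKO, -44.3 points. Of the 6 Hes and Hey genes, a family that includes repressors of proneural genes such as *Hes1*, 1 was lower by more than 20 points at the TSS in 3aKO. *Hes1* had the longest single-run stretch, at 3.14 kb, and *Heyl* the largest flank difference, at -41.1. Of the 6 genes of the E proteins and their Id inhibitors, 0 were, with *Tcf3* as the longest single run (1.86 kb, where *Id4* was longer with joined runs, at 2.21 kb) and *Id1* as the largest flank difference (-35.4). Of the 11 bHLH genes of other lineages 5 were, with *Twist1* as the longest single run (2.02 kb, where *Tal1* was longer with joined runs, at 2.18 kb) and *Scx* as the largest flank difference (-38.0). In 3bKO each list had 0. WT means were under 20% in 3 of the 7 other neural genes, 4 of the 6 Hes and Hey genes, 6 of the 6 Id and E protein genes and 6 of the 11 genes of other lineages, so that these counts are not comparable with each other or with the 40.9% of all genes.

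Among the ESC regulators, *Sox2* had a WT stretch of 6.46 kb, over 2 times as long as the longest joined stretch of a neural bHLH gene in WT (3.08 kb in *Olig2*), and *Esrrb* had the largest flank difference in 3aKO, -38.4. Only 1.72% of all genes had a longer joined WT stretch than *Olig2*, 2.56% than *Neurod2* and 7.19% than *Olig1*. By contrast, 52.0% had a longer one than *Atoh7* and 56.6% than *Neurod1*, where 62.65% of all genes had any WT stretch. In 3aKO 0.252% of genes had a longer stretch than *Olig2* and 0.777% than *Neurog3*.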

How the data were processed

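WGBS reads from J1 ESCs of the 3 genotypes were aligned by the authors to mm9 with BSMAP, cleaned with BSeQC and counted over both strands of each CpG with mCall of MOABS; versions are not given in the sources used here. The deposited tables hold raw read counts per CpG, all and unconverted, and the methylation ratio, a fraction which the authors rounded. The libraries were combined by genotype in the deposit. The WT table ends on chromosome 4, and its incomplete last row was left out.

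Levels were means of CpG ratios over CpGs covered by at least 3 reads in all 3 tables, around protein-coding genes taken by their longest isoform in GENCODE vM1 (mm9), with at least 5 CpGs per region. Intervals are 95% Wilson and Newcombe intervals of read shares and cover counting error only. For regions they sum the reads of all CpGs as if independent. A read that covers several CpGs is counted at each, so that these intervals may be too narrow. Python 3.11.15, NumPy 2.4.6, SciPy 1.17.1 and numba 0.67.0 were used, and matplotlib 3.10.9 for plots. The calls of single CpGs and the finding of stretches, without the rule on gaps, were tested on simulated data. The calls on regions and on stretch lengths were not. Stretches were broken at gaps over 1000 bp. A stretch holds the TSS or is the nearest within 1 kb. All 9 members are named, and from each other list the genes with the longest WT stretch as a single run and the most negative flank difference. The members and lists were chosen with earlier results of these data known, and joined runs and their minimum of CpGs were chosen after seeing the data. Alternatives covered minimum reads, weighting, region sizes, the running mean, its limit, gaps and the CpG call. The promoter tables of another build were not used, and sequences were read from the mm9 genome.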

Additional observations from a re-analysis of the deposited data

How the results depend on the processing

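No paired analysis was possible because each genotype has only 1 combined table. Without replicates, differences cover counting error only, and depth limits regions of few CpGs. Of 63 alternative values of the main summaries, 42 moved by less than the counting interval of the median gene (differences) or by less than 1.5 times (lengths and shares), and no median difference changed sign. Of single genes, the *Neurod2* difference at the TSS in 3aKO turned to 0.896 with 500 bp and to 12.5 with at least 10 reads, and the *Bhlhe22* body difference in 3bKO turned from -0.524 to 0.048 with at least 10 reads. The cause was not tested where a value moved. With at least 10 reads per CpG, the median flank difference was -33.7 points for 3aKO minus WT and -22.6 for 3aKO minus 3bKO, and by read share -33.8 and -18.6. With flanks of 5 kb, the median difference in 3bKO was -8.96, and with 500 bp around the TSS it was -3.94. Bodies without the 1 kb after the TSS gave -22.4 in 3aKO and -5.75 in 3bKO. Median stretches by single CpGs were 0.136 kb in WT, 0.488 in 3aKO and 0.329 in 3bKO. With a limit of 20% they were 1.33 kb in WT and 1.74 in 3bKO. In 3bKO the median was 1.38 kb with 11 CpGs, 1.32 with at least 10 reads and 1.43 by read share. Joined runs, added after seeing the data, gave 1.53 kb in WT and 1.83 in 3bKO. CpGs of the 9 loci called lower in 3aKO were 32.1% with Fisher's exact test (Benjamini-Hochberg adjusted over all CpGs at 0.05), beside 49.6% of all CpGs. With a difference beyond 0 they were 38.5% in 3aKO, beside 59.4%, and 13.3% in 3bKO, beside 15.7%.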
